A study of Mus musculus with 18 samples.

Results

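Mouse mammary epithelium was compared between its basal, MaSC-enriched (mammary stem cell-enriched) subset, labelled MS, and its mature luminal subset, labelled ML. The comparison took every array labelled with either subpopulation, 5 MS and 5 ML arrays of the 18 in the series, and covered 16319 genes. Cells came from 5 pools of 3 to 5 female mice of the inbred FVB/N strain, for which the labels and methods give no treatment and no genetic alteration, and each pool gave 1 array of either subset. The other 8 arrays, 5 of luminal progenitor cells and 3 of stroma, entered the model and are used below only as reference levels. The labels and methods give no age for these pools, but a legend on a representative sort describes virgin FVB/N mice aged 8 weeks. Cells that carried the endothelial marker CD31, the leukocyte marker CD45 or the erythroid marker TER119 were depleted or gated out. MaSC-enriched cells were then collected as CD29hi CD24+ CD61+ and mature luminal cells as CD29lo CD24+ CD61-. The basal gate holds stem cells together with differentiated myoepithelial cells, so that the values describe the mixture.

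The mammary duct is a bilayer. Its inner luminal cells line the lumen, seal it with tight junctions and, in the mature subset, carry the receptors for estrogen and progesterone through which the gland senses hormones. Its outer basal cells rest on the basement membrane, contract in response to oxytocin to expel milk, and include the cells that regenerate a gland on transplantation. In these bulk samples, fewer cells of a type and less RNA per cell cannot be told apart.

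Labels and sorts matched the defining genes of either layer. Trp63 (p63), the transcription factor that marks basal epithelia, had log2 intensities of 13.65, 13.61, 13.15, 13.05 and 12.82 on the MaSC-enriched arrays of pools 1 to 5 and of 7.19, 8.11, 7.89, 8.19 and 9.52 on the mature luminal arrays. Keratin 5, a basal keratin, was at 12.69, 12.76, 11.15, 11.98 and 12.57 against 6.41, 6.97, 6.0, 6.90 and 7.36. Neither gene had overlapping values, and the differences were 5.35 ± 0.61 and 5.69 ± 0.50 (log2 MS minus ML ± standard error, limma adjusted p = 1.09e-06 and 4.15e-08). The estrogen receptor Esr1 went the other way, with 8.07, 7.93, 9.13, 8.56 and 7.11 in MaSC-enriched and 11.39, 11.31, 11.43, 9.67 and 10.61 in mature luminal cells, and so did its pioneer factor Foxa1, with 7.99, 7.63, 10.64, 8.74 and 7.60 against 13.54, 13.14, 13.45, 12.37 and 13.26. Pgr, the progesterone receptor, lay at 5.42 to 6.38 and 8.61 to 9.69. All 5 mature luminal arrays exceeded all 5 MaSC-enriched arrays for each of these receptors and for Foxa1, by 7.79-fold for Esr1, 9.89-fold for Pgr and 28.4-fold for Foxa1 (adjusted p = 4.63e-08, 2.39e-10 and 3.00e-08). Of 15 basal and myoepithelial markers 14 were higher in MaSC-enriched cells (median difference 3.41) and none lower, while of 14 luminal markers none was higher and 13 were lower (median -2.14), and 9 of 10 mature luminal markers were lower (median -3.13). For all genes tested, the share called was 13.7% higher and 13.8% lower, and the median difference was -0.04. The integrin chain Itgb4 (0.32) and the adhesion molecule Cdh1, E-cadherin (-0.77, adjusted p = 0.0802), were the basal and the luminal marker that did not pass.

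**Figure D1:**
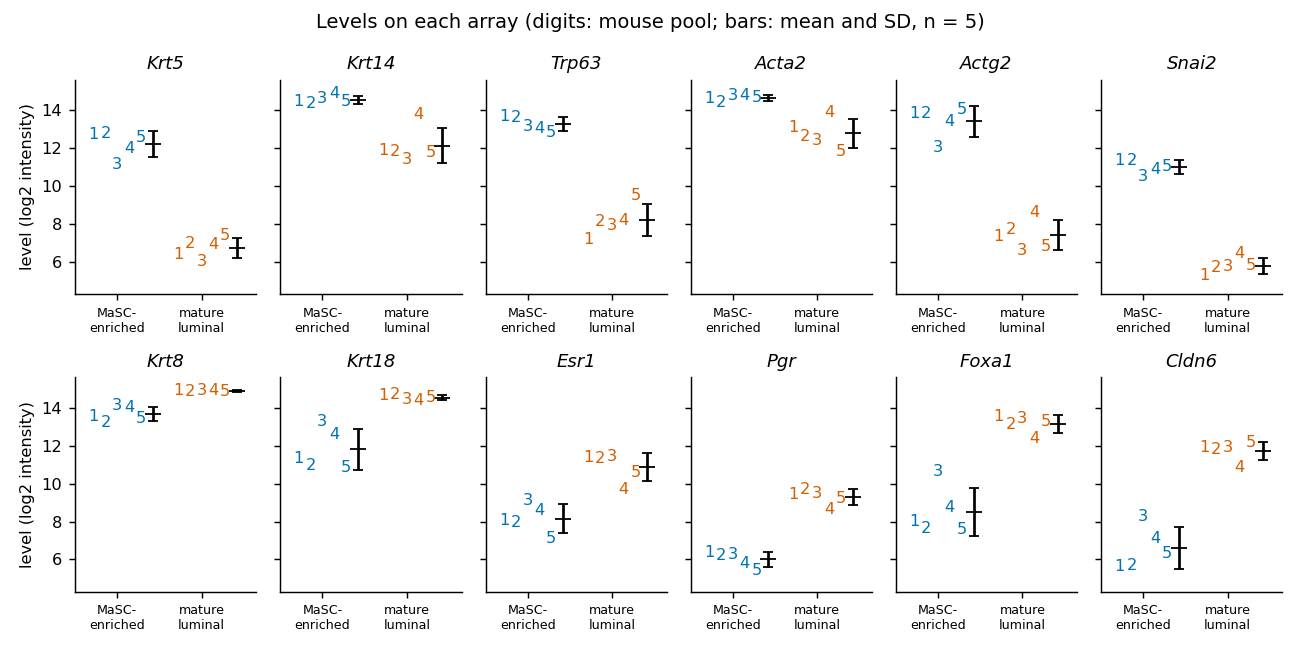
Levels (log2 intensity, y axis) of 12 genes in the 5 MaSC-enriched and the 5 mature luminal arrays; each digit is 1 array, named by its mouse pool, and bars give mean and SD (n = 5). The subsets do not overlap for any gene shown, and for Acta2 and Krt14 the mature luminal array of pool 4 lies closest to the MaSC-enriched arrays.

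The genes behind the sort followed the gates in part, and as they chose the cells they are no finding. Itgb1 (CD29) was at 8.78 ± 0.67 in MaSC-enriched and 8.07 ± 0.40 in mature luminal cells (mean log2 intensity ± SD, n = 5 each, here and below), Cd24a at 7.49 ± 0.65 and 8.54 ± 0.64. Itgb3, which encodes CD61, lay near background in both subsets (5.57 ± 0.31 and 5.52 ± 0.31), although the gates differ in that protein. Itga6 (CD49f), often used for the same gate, was not sorted on here and was 4.08-fold higher in MaSC-enriched cells (adjusted p = 1.49e-05). The leukocyte gene Ptprc (CD45) was at background on all 5 MaSC-enriched arrays and on 4 of 5 mature luminal arrays. Pecam1 (CD31), in contrast, was measured on every array, at 9.39, 9.78, 12.67, 11.79 and 7.65 in MaSC-enriched and at 8.72, 8.08, 8.43, 8.62 and 7.97 in mature luminal cells. The subsets overlapped, and its adjusted p of 0.0413 became 0.296 without the MaSC-enriched arrays of pools 3 and 4.

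The MaSC-enriched arrays of pools 3 and 4 stood apart from the other 3. Their mean over 12 endothelial markers was 11.96 and 11.49, against 8.39 to 9.33 on the other MaSC-enriched and 8.13 to 8.89 on the mature luminal arrays. Their mean over 15 luminal progenitor markers was 11.34 and 11.30, against 8.87 to 9.24 on the others, and their luminal markers were higher too. The mature luminal array of pool 4 was high in luminal progenitor markers as well (12.08, against 10.37 to 11.10). Fibroblast markers averaged 8.96 to 11.09 in MaSC-enriched, 6.91 to 8.37 in mature luminal and 13.87 to 13.97 in stromal arrays. The MaSC-enriched arrays of pools 3 and 4 were the highest of the 5 here too (10.965 and 11.086, against 8.96 to 9.76). The median within-pool difference of this list was 1.32, 0.98, 3.54, 2.85 and 3.37 in pools 1 to 5. In all, 13 of 14 fibroblast markers were called higher in MaSC-enriched cells. Dcn, an abundant fibroblast proteoglycan, was not among them, with a mean of 13.93 in MaSC-enriched and 13.93 in mature luminal cells. Of 9 pericyte markers 8 were higher and Notch3 was lower, and of 10 blood cell markers 2 were higher and 1 was lower. Of 7 adipocyte markers 3 were higher and of 12 endothelial markers 8, with none lower. Of all genes 13.7% were higher and 13.8% lower, and nothing particular to blood cells is read from their counts. Of 6 Schwann cell markers, Ngfr and Sox10 were higher and Erbb3 and Mbp lower, but another probe of Mbp was called higher. Without the 2 MaSC-enriched arrays, left out once their values had been seen, 1 endothelial, 5 pericyte, 1 adipocyte and 13 fibroblast markers were called higher, and 10 in place of 7 of 15 luminal progenitor markers were called lower. Leaving out any 1 of the MaSC-enriched or mature luminal arrays of pools 1, 2 and 5 brought these 7 to between 2 and 4, and leaving out any 1 of either subset's arrays of pools 2, 3 and 4 brought the 8 endothelial markers to between 2 and 4. Without the MaSC-enriched array of pool 1, 5 adipocyte markers were higher. The part of these cells in the differences below was not tested.

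**Figure D2:**
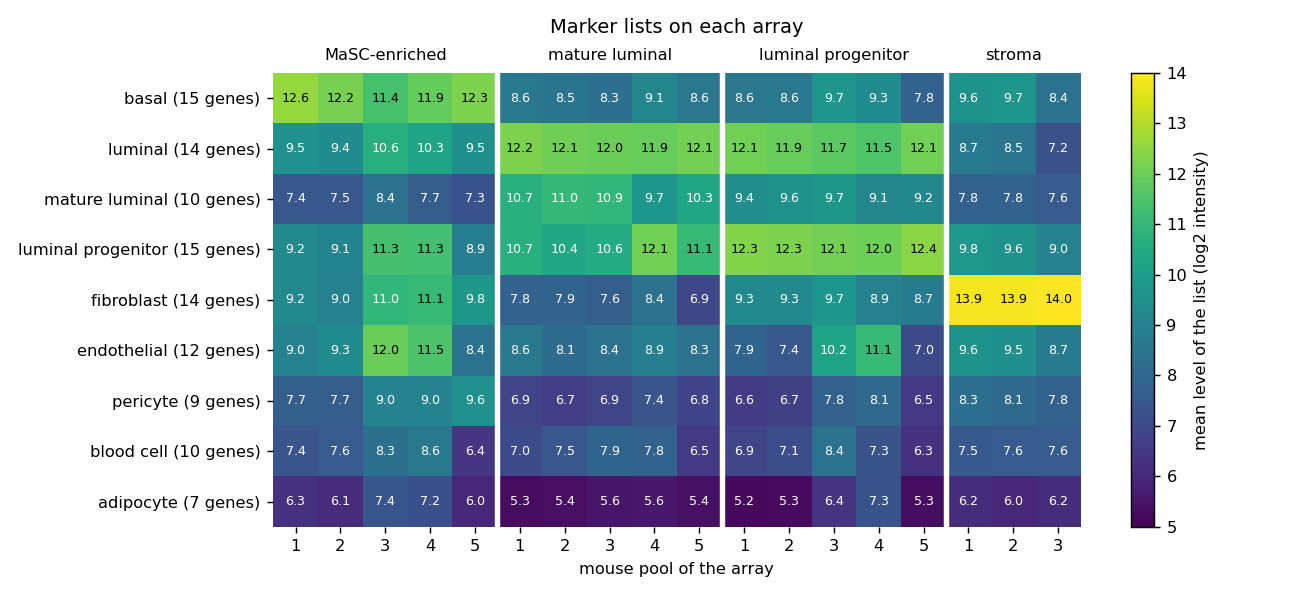
Mean log2 intensity of 9 marker lists (rows, number of measured genes in brackets) on each of the 18 arrays (columns, by subset and mouse pool); brighter is higher. MaSC-enriched arrays 3 and 4 are the MaSC-enriched arrays with the highest endothelial and luminal progenitor levels.

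The 2 subsets differed in 4488 of 16319 genes (27.5%). In MaSC-enriched cells 2237 genes were higher (13.7%) and 2251 lower (13.8%), at a false discovery rate of 0.05 and a fold change over 1.5. Every list count below is to be read beside these shares. The larger differences leaned one way. Over 4-fold, 766 genes were higher and 365 lower, over 16-fold 157 and 45, and over 32-fold 43 and 6, and the median difference of called genes was 1.48 for those higher and -1.03 for those lower. All 5 MaSC-enriched arrays lay above all 5 mature luminal arrays for 1463 genes (8.97% of all tested) and below them for 1662 (10.2%). Within pools, 1977 of the higher and 2034 of the lower genes differed the same way in all 5. The within-pool differences of all genes correlated with the mean of the other pools at 0.90, 0.89, 0.80, 0.83 and 0.87 in pools 1 to 5 (Pearson, across genes, which are not independent), with slopes of 1.08, 0.96, 0.80, 0.79 and 1.08. The median difference of the lower genes was smallest in pools 3 and 4 (-0.88 and -0.85, against -1.06 to -1.30), while that of the higher genes lay between 1.42 and 1.59 in the 5 pools. Without the MaSC-enriched arrays of these pools, 2188 genes were higher and 2371 lower, and 2002 and 2088 of them were among the genes called with all arrays. Of the 11831 genes not called, 6771 had a 95% interval inside a 1.5-fold change in either direction.

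**Figure D3:**
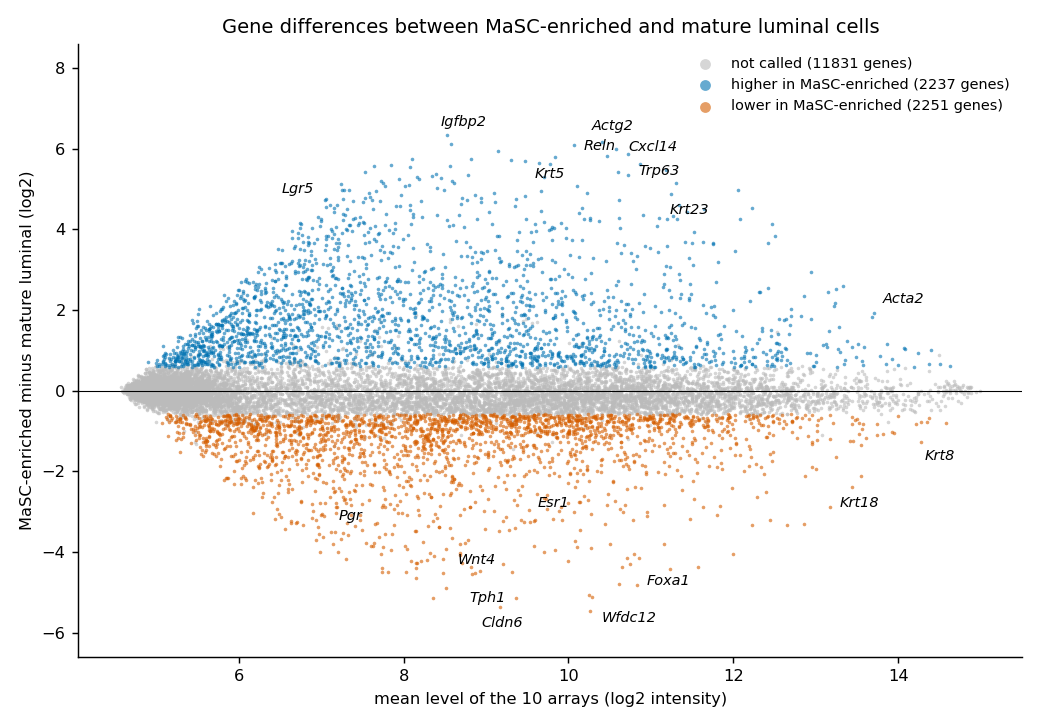
Difference between MaSC-enriched and mature luminal cells (log2, y axis) against the mean level over the 10 arrays (log2 intensity, x axis), 1 point per gene, blue where higher and orange where lower in MaSC-enriched cells. Blue points reach further from 0 than orange points, with 43 against 6 genes past 32-fold.

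Smooth muscle genes carried many of the largest differences. Actg2, enteric smooth muscle actin, was at 13.83, 13.82, 12.02, 13.39 and 14.05 in MaSC-enriched and 7.34, 7.68, 6.58, 8.59 and 6.82 in mature luminal cells, a 71.7-fold difference (adjusted p = 3.13e-07). Smooth muscle myosin Myh11 (13.63 ± 0.72 against 7.82 ± 0.94), the actin-binding Tagln (11.63 ± 0.96 against 6.0 ± 0.80) and the regulatory light chain Myl9 (13.86 ± 0.71 against 8.51 ± 0.69) were apart by 5.87, 5.75 and 5.47 on the log2 scale. Of 18 contractile genes 17 were higher and none lower, and the median difference was 3.07. None of these 17 had a higher mean in stroma than in MaSC-enriched cells. Acta2, alpha smooth muscle actin, was bright in both subsets, at 14.59, 14.42, 14.78, 14.78 and 14.67 in MaSC-enriched against 13.09, 12.62, 12.41, 13.88 and 11.82 in mature luminal cells, and differed 3.77-fold (adjusted p = 0.00163). Calponin, Cnn1, was at background on every mature luminal array and was at least 2.57-fold higher in MaSC-enriched cells (adjusted p = 0.000207). Oxtr, the receptor through which oxytocin makes these cells contract, was 5.89-fold higher, with 3 of 5 mature luminal arrays above background.

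Contractile genes are classically bound by serum response factor at the CArG box, and Myl9 is shown because its promoter was the only one of the list with a full CArG box in the stretch examined. The sequence is the 250 bases before the annotated start (RefSeq, GRCm38.p6, chr2:156775214-156775463, plus strand), 5′ to 3′, with the box in capitals, at positions -161 to -152 counted from the start.
Myl9: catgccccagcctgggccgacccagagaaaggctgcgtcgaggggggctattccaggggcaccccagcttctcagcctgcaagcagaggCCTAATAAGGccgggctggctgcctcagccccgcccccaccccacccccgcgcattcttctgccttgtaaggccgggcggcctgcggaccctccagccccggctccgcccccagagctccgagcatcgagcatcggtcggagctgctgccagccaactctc
The match is CCTAATAAGG. Its pattern reads the same on both strands. Promoters were matched for 14 of the 18 contractile genes, and 1 of them held the box (7.14%), against 439 of 27025 genes with a promoter in the table (1.62%). The palindromic estrogen response element, the half-sites GGTCA and TGACC with 3 bases between them, searched on both strands, was in the promoter of none of 18 matched genes of the estrogen and progesterone receptor network and of 18 of all 27025 genes (0.0666%). A match is a description of the letters in this window only.

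Keratins divided the layers, with exceptions on either side. Of 7 basal keratins 5 were higher in MaSC-enriched cells: besides Krt5, Krt17 (4.13), Krt15 (4.05), Krt14 (2.60) and Krt16. Krt6b and Krt6a went the other way. Krt6b was at 4.70, 5.32, 4.79, 4.80 and 6.94 against 8.48, 6.52, 6.94, 5.69 and 10.66 and fell by 2.33 on the log2 scale, with overlapping arrays. Krt6a was at background on all 5 MaSC-enriched and above it on 4 of 5 mature luminal arrays, at least 2.11-fold lower (adjusted p = 0.0131). Both are keratins of stressed or proliferating epithelia in skin. Of 7 luminal keratins 4 were lower, Krt7 by 13.9-fold, Krt19 by 10.1-fold, Krt18 by 7.38-fold and Krt8 by 2.42-fold. Krt8 was bright in both, at 13.24 to 14.11 in MaSC-enriched and 14.85 to 14.93 in mature luminal cells. The highest value on any array was 15.09. Whether levels so near it compress the folds of Krt8 and of Acta2, given above, was not tested. Krt23 was the exception, at 12.96, 13.26, 13.12, 13.16 and 12.86 in MaSC-enriched and 8.61, 7.80, 9.18, 11.11 and 8.94 in mature luminal cells, 19.5-fold higher (adjusted p = 9.38e-08). The MaSC-enriched arrays of pools 3 and 4 were the highest of the 5 for Krt18 (11.34, 10.96, 13.30, 12.60 and 10.86) and, without them, its difference was -3.58 in place of -2.88.

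Genes that anchor the basal layer were mostly higher in MaSC-enriched cells. Hemidesmosomes tie keratins to laminin through integrin alpha6 beta4 and collagen XVII, and anchoring fibrils of collagen VII tie the basement membrane to the stroma. Col7a1 was at 12.43 ± 0.53 against 6.86 ± 0.73 and Col17a1 at 13.64 ± 0.44 against 8.09 ± 0.57, 50.2-fold and 49.2-fold higher. Of 8 genes of these structures 5 were higher, Lamb3 (3.58) and Itga6 among them. Of 19 integrin subunits 10 were higher and 1 lower, against the 13.7% and 13.8% of all genes. Itga9, which binds tenascin, led them with 5.02 ± 0.40, followed by the collagen receptor Itga1 (3.13), Itga11 (2.51) and Itga7 (2.43). Itgb6, an epithelial integrin chain that takes part in TGF-beta activation, was the subunit that was lower (-0.64, adjusted p = 0.0175), and its difference was about as large without the MaSC-enriched arrays of pools 3 and 4 (-0.61) but did not pass (adjusted p = 0.0554). Without the mature luminal array of pool 4 or of pool 5 it was not called either.

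The basement membrane genes followed. Of 21, 15 were higher and 1 was lower (median 1.81). Lama1, the alpha chain of laminin-111, was at 12.28, 12.18, 11.75, 12.70 and 12.45 in MaSC-enriched and 6.65, 6.60, 7.12, 8.95 and 6.32 in mature luminal cells, 39.5-fold apart. The collagen IV chain Col4a2 was 24.1-fold, Col4a1 19.1-fold and collagen XVIII (Col18a1) 21.7-fold higher. Lama5, the alpha chain of laminin-511, was 1.85-fold lower (adjusted p = 0.0122). Of the 15 higher genes, 9 had a still higher mean in stroma.

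All 20 fibrillar matrix and matricellular genes were higher in MaSC-enriched cells, with a median difference of 2.77. Col14a1, a collagen that associates with fibrils, was at 12.06, 12.42, 11.41, 11.91 and 12.44 against 5.66, 6.04, 6.69, 7.58 and 5.18. Versican (Vcan), above background on 1 of 5 mature luminal arrays, was higher by 4.76, elastin (Eln) by 4.52 and Col5a1 by 3.78. For 19 of the 20, the mean in stroma exceeded that in MaSC-enriched cells, and fibroblast markers moved the same way, as above. Without the MaSC-enriched arrays of pools 3 and 4, 19 of 20 were called. Of 17 proteases and inhibitors that remodel this matrix 11 were higher and none lower, with gelatinase A (Mmp2, 4.35), Adamts1 (4.26), the inhibitor Timp3 (4.09) and urokinase (Plau, 3.43) at the head. Of these 11, 9 were higher still in stroma.

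Tight junction and apical genes were lower in MaSC-enriched cells. Cldn6, a claudin of embryonic epithelia, was at 5.63, 5.66, 8.29, 7.10 and 6.34 in MaSC-enriched and at 11.88, 11.80, 11.88, 10.87 and 12.17 in mature luminal cells, 41.2-fold lower. Cldn4 (-3.32), Cldn10 (-3.21) and Cldn3 (-3.09) were next among the 15 of 21 tight junction genes that were lower, and 3 were higher. Those were Cldn5 (2.08), which is also an endothelial claudin, Cldn15 (1.25) and Cldn12 (0.85). Without the MaSC-enriched arrays of pools 3 and 4, 1 was called higher, as without that of pool 3 alone, and Cldn5 fell from 2.08 to 1.23 with an adjusted p of 0.277. Of 16 apical membrane and polarity genes 11 were lower, among them the motor Myo5b (-2.71), podocalyxin (Podxl, -2.66), the recycling GTPase Rab25 (-2.42) and the mucin Muc1 (-2.18), and Cdhr1 alone was higher (0.80, adjusted p = 0.0474). It was not called without the same arrays and changed sign in the second hybridization batch alone (-0.20).

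Cell-cell adhesion differed in kind. P-cadherin, Cdh3, was at 11.31 ± 0.72 in MaSC-enriched and 6.25 ± 0.86 in mature luminal cells, 40.5-fold higher, and the truncated cadherin Cdh13 and the plakophilin Pkp1 were higher by 2.73 and 1.88. The cornified envelope protein envoplakin (Evpl), the plakophilin Pkp2 and periplakin (Ppl) were lower, by 10.5-fold, 9.62-fold and 3.09-fold. In all, 5 of 16 cadherin and desmosome genes were higher and 3 lower, with Cdh5, the endothelial cadherin, among the former (1.79).

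**Figure D4:**
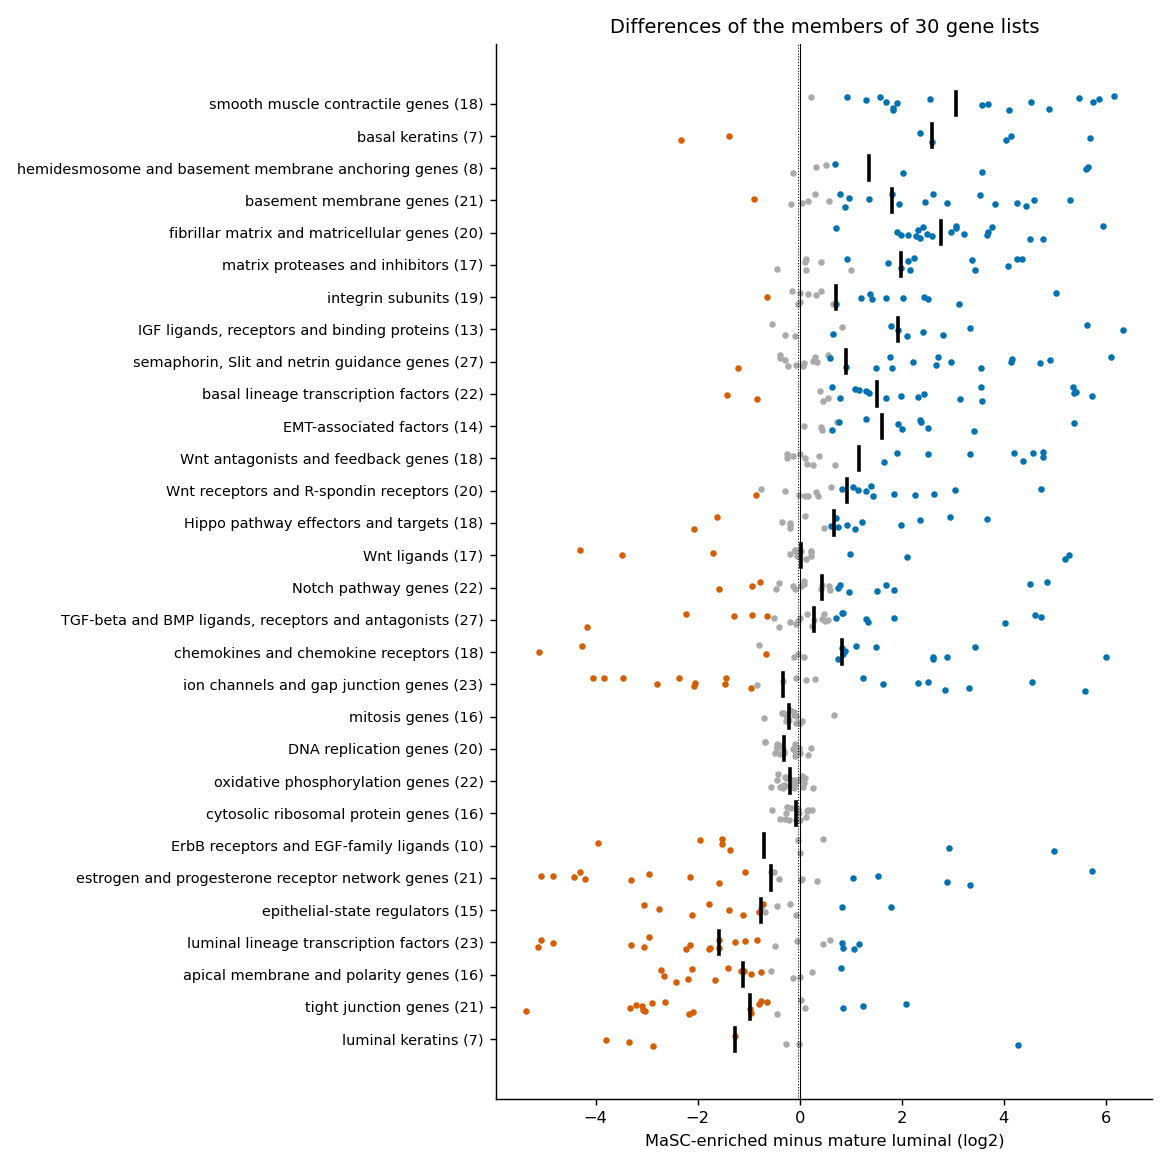
Difference between MaSC-enriched and mature luminal cells (log2, x axis) for every measured member of 30 gene lists (rows, number of members in brackets), blue where called higher, orange where called lower and grey where not called; black bars mark the list's median and the dotted line the median of all genes (-0.04). All 20 fibrillar matrix genes lie to the right of 0 and none of the mitosis, replication, oxidative phosphorylation and ribosomal protein genes is called.

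The transcription factors of either lineage differed in both directions and by large factors. Id4, an inhibitor of basic helix-loop-helix factors, was at 12.73, 12.90, 12.52, 11.18 and 11.29 against 6.26, 7.17, 7.11, 6.58 and 5.24 and was 53.1-fold higher in MaSC-enriched cells. Irx4, an Iroquois homeobox factor, was above background on 1 of 5 mature luminal arrays and higher by 5.42, and Snai2 (Slug) was 41.7-fold higher, at 10.99 ± 0.36 against 5.79 ± 0.41. Sox11 was at background on all 5 mature luminal arrays and was at least 10.1-fold higher. Of 22 basal lineage factors 17 were higher, and the 2 that were lower were Barx2 (-1.42) and Sox9 (-0.83), a factor with roles in progenitors of many epithelia. Of 14 genes associated with the epithelial-mesenchymal transition 10 were higher and none lower, including vimentin (Vim, 3.41), Zeb1 (2.51) and Zeb2 (2.38). Of these 10, 8 were higher still in stroma, beside the fibroblast markers given above.

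On the luminal side, Esrrb, an orphan nuclear receptor, was at 10.64, 10.27, 11.66, 10.88 and 10.70 in mature luminal cells and above background on 2 of 5 MaSC-enriched arrays, with a difference of -5.13 ± 0.37. Cited1, a coactivator that modulates estrogen receptor activity, was at 7.16, 7.15, 9.66, 8.02 and 7.16 in MaSC-enriched and 13.02, 12.94, 12.95, 11.52 and 12.88 in mature luminal cells. Of 23 luminal lineage factors 15 were lower and 4 higher. The 4 were Lmo4 (1.15), Cebpb (1.06), Id2 (0.84) and the glucocorticoid receptor Nr3c1 (0.83). Of 15 regulators of the epithelial state 8 were lower, led by the prostate-derived ETS factor Spdef (-3.06, 2 of 5 MaSC-enriched arrays above background), the grainyhead factor Grhl1 (-2.75), the splicing regulator Esrp2 (-2.11) and Elf5 (-1.78), which drives alveolar differentiation. Tfap2c (1.79) and Klf5 (0.83) were higher. Without the MaSC-enriched array of pool 2, 4 in place of 8 were lower, and 1 in place of 2 was higher without it, the MaSC-enriched array of pool 1 or 5 or the mature luminal array of pool 2 or 3. Elf5, also a luminal progenitor marker, was at 9.30, 9.16, 11.84, 11.48 and 7.57 in MaSC-enriched cells, highest in pools 3 and 4. Without those 2 arrays its difference was -2.63, and without the MaSC-enriched array of pool 1, 2 or 5 it was not called.

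In the hormone network, a paracrine ligand and its decoy receptor were on opposite sides. Progesterone acts on the gland largely through RANK ligand and Wnt4, paracrine signals of the receptor-positive cell. Tnfsf11, which encodes RANK ligand, was at 5.72, 6.16, 7.34, 5.66 and 6.19 in MaSC-enriched and 9.40, 11.38, 11.48, 9.73 and 9.02 in mature luminal cells, 18.6-fold lower in the former. Its soluble decoy receptor, Tnfrsf11b (osteoprotegerin), went the opposite way: it was at background on every mature luminal array and at least 23.8-fold higher in MaSC-enriched cells (adjusted p = 4.75e-11). Of 21 genes of the estrogen and progesterone receptor network 10 were lower, Stc2 (stanniocalcin, -4.42) among them, and 5 were higher, with Igfbp4 (3.33) and Cxcl12 (2.89) after Id4. Of 8 genes of prolactin and growth hormone signalling, Ghr (1.24) and Socs1 (1.21) were higher, and Elf5, Stat5a (-1.27) and Jak2 (-0.82) lower.

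Wnt genes were split between the layers by ligand, while receptors and feedback genes leaned to the MaSC-enriched side. Wnt signals are lipid-modified proteins that act on Frizzled receptors, and R-spondins strengthen them through Lgr receptors. Wnt10a was at 11.84, 11.72, 9.55, 9.84 and 12.06 against 5.67, 6.19, 5.40, 5.21 and 7.02 and Wnt6 at 9.97, 10.70, 9.67, 10.25 and 10.79 against 4.94, 4.99, 4.74, 5.32 and 5.91, 38.8-fold and 36.8-fold higher in MaSC-enriched cells, with 2 of 5 mature luminal arrays above background for Wnt6. Wnt2 (2.10) and Wnt11 (0.99) were higher as well. Wnt4 was at 6.44, 7.24, 7.80, 7.69 and 6.43 against 11.07, 11.87, 11.41, 10.93 and 11.19, 19.8-fold lower, and Wnt7b and Wnt5a were 11.2-fold and 3.26-fold lower. No array overlapped between the subsets for Wnt4, Wnt6 or Wnt10a. The other 10 of 17 ligands measured were not called.

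Of 20 Wnt and R-spondin receptor genes 11 were higher and 1 lower (median 0.94). Lgr5 was at 11.32, 10.59, 6.99, 7.39 and 9.91 in MaSC-enriched cells and at background on all 5 mature luminal arrays, at least 17-fold higher (adjusted p = 5.95e-07). Its level was lowest on the MaSC-enriched arrays of pools 3 and 4. Lgr6 (3.04), Fzd7 (2.64) and Fzd3 (2.26) were higher, and Fzd6 was the receptor that was lower (-0.86). Of 18 secreted antagonists and feedback genes 9 were higher and none lower. Sostdc1, which also antagonizes BMPs, was 27.3-fold, the Wnt inhibitory factor Wif1 27.1-fold, and the intracellular antagonists Nkd2 and Nkd1 23.8-fold and 20.7-fold higher. Axin2, a widely used readout of canonical signalling, was at 8.37, 8.44, 8.31, 8.40 and 8.20 against 5.95, 6.71, 7.25, 7.21 and 6.86, 3.13-fold higher (adjusted p = 0.000291).

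**Figure D5:**
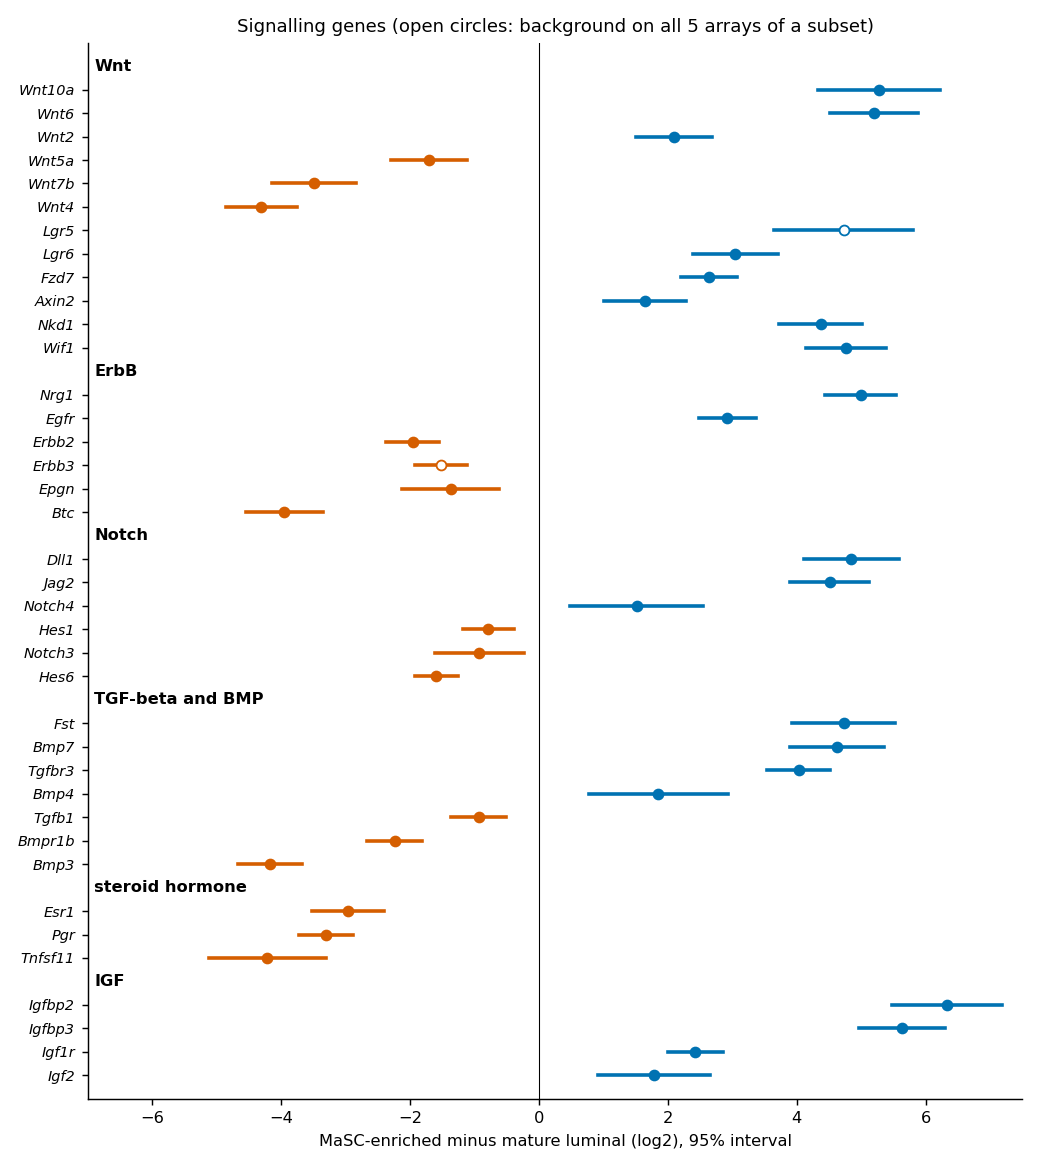
Difference between MaSC-enriched and mature luminal cells (log2, x axis) of selected called members of 6 signalling groups, with the 95% interval of the model as a line; blue is higher and orange lower in MaSC-enriched cells, and open circles mark genes at background on all 5 arrays of a subset. Ligands of the Wnt and BMP families lie on both sides of 0.

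The ErbB family, through which EGF-like ligands act, was divided in a similar manner. Nrg1, the ligand neuregulin 1, was at 9.26, 9.58, 10.13, 9.18 and 11.04 in MaSC-enriched cells and at 4.72, 4.73, 4.64, 4.87 and 5.24 in mature luminal cells, where 1 of 5 arrays was above background. Egfr was at 11.65 ± 0.40 against 8.89 ± 0.67, 7.57-fold higher. Erbb2 was 3.89-fold lower, and Erbb3, the neuregulin receptor, was at background on all MaSC-enriched arrays and at least 2.19-fold lower there (adjusted p = 3.66e-06). Betacellulin (Btc), an EGF receptor ligand, was at 5.04, 5.78, 7.02, 6.48 and 5.37 against 9.49, 10.01, 9.92, 9.12 and 10.25, 15.4-fold lower. For Nrg1 and its receptor Erbb3, as for Btc and its receptor Egfr, the ligand was higher in one subset and the receptor in the other. In all 2 of 10 genes were higher and 5 lower.

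IGF binding proteins, which hold IGFs outside the cell, were among the largest differences. Igfbp2 was at 11.53, 11.97, 10.22, 12.47 and 11.99 against 4.86, 5.13, 5.35, 6.70 and 5.10, 80.5-fold higher with 3 of 5 mature luminal arrays above background, the largest difference of any called gene, and Igfbp3 was 49.6-fold higher. Of 13 genes of this group 9 were higher and none lower, among them Igfbp4 and Igfbp6 (2.81). Of 16 FGF genes 6 were higher, led by the ETS factor Etv5 (2.32), the receptor-like Fgfrl1 (1.90), which lacks a kinase domain, and the ETS factor Etv4 (1.70), and Fgfr2, an epithelial FGF receptor, was lower (-1.17).

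Of 22 Notch pathway genes 8 were higher and 3 lower. Of all genes 13.7% were higher and 13.8% lower, and nothing particular to the pathway is read from these counts. The ligands Dll1 and Jag2 accounted for the largest differences: Dll1 was at 12.08, 11.13, 10.24, 11.12 and 11.60 against 6.57, 6.40, 6.14, 7.19 and 6.23 and Jag2 at 9.85, 10.21, 9.33, 10.24 and 9.52 against 5.13, 5.27, 5.35, 5.85 and 5.57, 28.7-fold and 22.8-fold higher in MaSC-enriched cells. The lower genes were the target Hes1 (-0.78), Hes6 (-1.59) and the receptor Notch3 (-0.93), which changed sign in the second hybridization batch alone (0.16). Notch3 was also not called without the MaSC-enriched array of pool 1 or 2 or the mature luminal array of pool 1, 2, 3 or 4. Without the MaSC-enriched arrays of pools 3 and 4, 4 were higher and 5 lower, and 4 were higher without either of these arrays, 5 without the mature luminal array of pool 2 or pool 3.

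TGF-beta and BMP genes were divided too. The activin antagonist follistatin (Fst) was at 12.93 ± 0.56 against 8.30 ± 0.75, Bmp7 at 10.92 ± 0.46 against 6.47 ± 0.32 and the coreceptor Tgfbr3 at 11.91 ± 0.54 against 8.02 ± 0.81, 26.4-fold, 24.6-fold and 16.3-fold higher in MaSC-enriched cells. Bmp3, an atypical antagonistic BMP, was at 6.02, 5.74, 7.39, 6.71 and 6.51 against 10.99, 10.07, 10.72, 9.83 and 10.81, 18-fold lower, and the type I receptor Bmpr1b was 4.72-fold lower. Of 27 genes 9 were higher and 5 lower, 3 without the MaSC-enriched array of pool 1 or pool 2. Of 11 Hedgehog genes, the ligand Dhh (2.73, 1 of 5 mature luminal arrays above background) and the effectors Gli2 (1.62) and Gli3 (0.83) were higher and the coreceptor Cdon lower (-1.98). Of 18 Hippo pathway genes 10 were higher, with the target Ccn2 (CTGF) at 14.20 ± 0.35 against 10.63 ± 0.28, and Tead2 (-2.07) and Wwc1 (-1.62) were lower.

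Genes better known from neurons were among the largest differences. Reelin (Reln), a secreted glycoprotein that guides neurons, was at 12.74, 12.89, 12.52, 14.16 and 12.86 in MaSC-enriched and at 6.24, 6.59, 7.05, 9.14 and 6.54 in mature luminal cells. The teneurin Tenm2, a synaptic adhesion protein, was at 12.10, 11.66, 10.59, 11.78 and 11.61 against 5.68, 5.01, 5.12, 6.31 and 5.95. Reln was 68.3-fold and Tenm2 69.8-fold higher, with no overlap between the arrays of the subsets. The neurotrophin receptor Ntrk3 was at background on every mature luminal array and at least 12.3-fold higher, and Ngfr, the p75 receptor, was 12.8-fold higher. In all, 11 of 18 neurotrophin and synaptic adhesion genes were higher and Nrxn2 was lower (-1.5). Of 27 semaphorin, Slit and netrin genes 15 were higher, with Sema5a (4.90), Sema6d (4.72) and Slit2 (4.17) after Reln, and Sema4d, a semaphorin of leukocytes, was lower (-1.20). Of 17 Eph receptors and ephrins 8 were higher and none lower, Ephb1 by 4.80 and Efnb2 by 2.52. Of 26 Hox genes 7 were higher, led by Hoxc6 (2.36), and Hoxb2 was lower (-0.90). Without the MaSC-enriched arrays of pools 3 and 4, 4 Hox genes were higher. Of all genes 13.7% were higher and 13.8% lower, and nothing particular to Hox genes is read from these counts.

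Chemokine genes included large differences in both directions. Cxcl14 was at 14.02, 13.78, 12.31, 13.54 and 13.85 in MaSC-enriched and 7.69, 7.48, 7.27, 8.51 and 7.30 in mature luminal cells, 63.8-fold higher, while Cxcl15 and Cxcl17, chemokines of mucosal epithelia, were 34.5-fold and 19.3-fold lower. Ccl2, which attracts monocytes, was higher by 3.44. Of 18 genes 11 were higher and 3 lower. Of 14 interferon response genes 7 were higher, such as Ifit2 (1.87) and Mx2 (1.84), and Usp18 (-1.30) and Bst2 (-1.18) were lower. Without the MaSC-enriched array of pool 2, 4 were higher, and without those of pools 3 and 4, 5. The immunoproteasome subunits Psmb8 and Psmb9 and the peptide transporter Tap2, which prepare peptides for MHC class I, were lower (-1.47, -1.47 and -1.16). The class II genes Cd74 and H2-Ab1 were called higher (1.19 and 1.18), and their differences were 1.10 and 0.95 without the MaSC-enriched arrays of pools 3 and 4, where neither passed (adjusted p = 0.0602 and 0.175). Neither was called without the MaSC-enriched array of pool 1 or the mature luminal array of pool 1 or pool 2, and 1 of them without any 1 of the MaSC-enriched arrays of pools 2, 3 and 4 or the mature luminal array of pool 5. Of 11 receptor and ligand genes of the interleukin-6 family, which signals through gp130, 4 were higher, led by the ligand Il6 (2.49) and the receptor Osmr (1.68). The ligand Ctf1 was lower (-0.62, limma adjusted p = 0.00327). It was not called without the MaSC-enriched array of pool 3 or 4 or the mature luminal array of pool 1.

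Ion channel and transporter genes differed in both directions. Cacna2d1, a subunit of voltage-gated calcium channels, was at 11.32, 10.45, 9.80, 10.66 and 10.96 in MaSC-enriched and 5.36, 4.81, 5.16, 5.18 and 4.73 in mature luminal cells, 48.4-fold higher, and Kcnmb1, the smooth muscle subunit of the BK potassium channel, was at background on every mature luminal array and at least 17.1-fold higher. The water channel Aqp5 was at 8.14, 8.0, 10.74, 9.79 and 7.65 against 12.86, 12.69, 12.99, 12.18 and 12.85, 16.6-fold lower, and Scnn1a, a subunit of the epithelial sodium channel that acts in apical membranes, was 14.3-fold lower. In all 8 of 23 were higher and 10 lower. Among 15 solute transporters, the glutamate carrier Slc1a3 (4.90, 1 of 5 mature luminal arrays above background) and the glucose carrier Slc2a3 (3.30) were higher and the cotransporter Slc12a2 (-2.11) and the iron exporter Slc40a1 (-2.07) lower. Tph1, the first enzyme of serotonin synthesis, was at 6.13, 6.26, 8.32, 7.06 and 6.47 against 12.21, 11.55, 11.95, 11.08 and 12.58, 35.5-fold lower, while Maob, which degrades monoamines, and the receptor Htr1d were higher, by 3.57 and 3.23, with 1 of 5 mature luminal arrays above background for Htr1d. Trpv6 (2.33) and the vitamin D receptor Vdr (1.24) were higher and the calcium pump Atp2c2 lower (-1.54), and of the retinoid enzymes Aldh1a1 was higher (2.23, 1 of 5 mature luminal arrays above background) and Aldh1a3 lower (-1.87).

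The lists of respiration, translation, mitosis and DNA replication genes held no calls. The mitosis genes Mki67, Ccnb1, Ccnb2 and Cenpe were not among those measured. None of 22 oxidative phosphorylation genes, 16 cytosolic ribosomal protein genes, 16 mitosis genes or 20 DNA replication genes was called in either direction (limma), with median differences of -0.20, -0.06, -0.20 and -0.30. At an unadjusted p under 0.05, 10, 3, 0 and 1 of them passed. The 95% interval lay inside a 1.5-fold change for 16 of the 22 and 13 of the 16 ribosomal genes, but for only 2 of the 16 mitosis and 1 of the 20 replication genes, so that for most cycle genes it reached past a 1.5-fold change. Without the MaSC-enriched array of pool 2, 2 replication genes and 1 oxidative phosphorylation gene were called lower, and without the mature luminal array of pool 4, 1 oxidative phosphorylation and 1 ribosomal protein gene. The MaSC-enriched array of pool 1 and the mature luminal array of pool 5 likewise gave 1 oxidative phosphorylation gene when left out. Single regulators of the cycle were called. The D-type cyclin Ccnd2 was at 10.54, 11.45, 10.69, 10.90 and 11.28 against 5.70, 5.75, 6.14, 6.44 and 8.17, 27.3-fold higher in MaSC-enriched cells. The CDK inhibitors Cdkn1c and Cdkn1a were higher by 2.45 and 1.29, and the CDK inhibitor Cdkn2a was lower (-0.62, limma adjusted p = 0.0473). In all, 3 of 15 G1 cyclins and CDK inhibitors were higher and 1 was lower. Cdkn2a was not called without the MaSC-enriched array of pool 1, 2 or 3 or the mature luminal array of pool 1, 2, 4 or 5. Of 14 glycolysis genes Pfkp was higher (2.19) and Aldoc (-1.86), Tpi1 (-0.73) and Hk1 (-0.71) lower. Of 20 lipid synthesis genes 5 were lower, led by Dgat2 (-1.71), which makes triglyceride, and 3 higher. Without any 1 of the MaSC-enriched arrays of pools 1, 2 and 5 and the mature luminal arrays of pools 1 and 5, 2 or 3 were lower. Of 21 endoplasmic reticulum genes, Kdelr3 (2.23) led the 4 that were higher and Creb3l4 (-1.36) and Xbp1 (-1.08) were among the 3 that were lower, and of 15 cilium genes none was higher and 3 were lower. Of all genes, 13.7% were higher and 13.8% lower, and nothing particular to either list is read from these counts. Of 14 Bcl2 family genes 3 were higher and 5 lower (3 lower without the MaSC-enriched array of pool 1 or pool 5), with the proapoptotic Bik 9.24-fold lower and Bok 5.44-fold higher. Of 19 immediate early genes, Egr3 (2.45), Egr2 (2.45) and Myc (1.78) were among the 6 that were higher and Klf2 was lower (-0.76). The call of Klf2 was lost without the MaSC-enriched array of pool 1, 2 or 5 or the mature luminal array of pool 1. Of 19 chromatin genes, Tet1 was higher (1.5) and Bmi1, a Polycomb gene tied to stem cell renewal, was at 8.03, 7.55, 7.58, 5.91 and 7.64 in MaSC-enriched and 9.18, 9.36, 9.04, 8.28 and 9.03 in mature luminal cells and was 3.02-fold lower (adjusted p = 2.87e-05).

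Outside these lists, the largest rises in MaSC-enriched cells included the secreted peptide precursor Ecrg4 (5.81), the copper-dependent monooxygenase Moxd1 (5.80) and Sobp (5.74). The largest fall was Wfdc12, of the whey acidic protein family, at 5.12, 7.0, 9.85, 8.36 and 7.97 against 12.02, 12.48, 13.94, 12.29 and 13.62. It spanned nearly 5 log2 units over the MaSC-enriched arrays and was highest in pool 3. Cyp3a57 (-4.90), arginase (Arg1, -4.79), the uroplakin Upk2 (-4.64), Prr15l (-4.55), the mechanosensitive channel Piezo2 (-4.53), surfactant protein D (Sftpd, -4.53), Crym (-4.51) and the microvillar bundler Pls1 (-4.50) were also among the 15 largest falls, and Cyp3a57, Upk2 and Pls1 were above background on only 2, 3 and 3 of 5 MaSC-enriched arrays.

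Some genes were above background in only one of the subsets. The cut is lenient, as 8.10% to 12.8% of the olfactory and vomeronasal receptor probes that set it also lay above it. Above background on all 5 MaSC-enriched and at or below it on all 5 mature luminal arrays were 104 genes, all called higher. The reverse held for 28, of which 24 were called lower. The 104 include Lgr5, Sox11, Ntrk3, Tnfrsf11b and Kcnmb1. With the 99th percentile of the receptor probes as background, the counts were 234 and 36. Among genes named above, Wnt11 was above background on 1 and Cacna2d1, Ephb1, Itga7, Nkd1 and Sobp on 2 of 5 mature luminal arrays. The fold of a gene near background in 1 subset is bounded by that background, and the folds given as at least a value compare the higher subset with the background of the other.

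Luminal progenitor arrays lay on the luminal side for most of these differences. Of the 2237 genes higher in MaSC-enriched cells, the mean of the luminal progenitor arrays was nearer to the mature luminal mean for 1725, and of the 2251 lower genes for 1653. The median position was 23.2% and 30.5% of the way from the mature luminal to the MaSC-enriched mean. Stroma was higher than MaSC-enriched cells for 966 of the 2237 (43.2%), between the subsets for 834 and at or below mature luminal cells for 437. Stroma exceeded MaSC-enriched cells for 9 of the 15 higher semaphorin, Slit and netrin genes, 6 of the 11 chemokine genes, 6 of the 7 interferon response genes, 6 of the 7 Hox genes and 5 of the 9 Wnt feedback genes, and for 1 of the 8 Eph and ephrin genes. These positions are levels from unweighted means, with no test. The luminal progenitor array of pool 4 had the lowest array weight (0.17). Endothelial markers averaged 10.22 and 11.09 on the luminal progenitor arrays of pools 3 and 4, against 7.02 to 7.89 on the others.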

How the data were processed

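RNA of sorted mammary subsets was labelled and put on Illumina whole-genome mouse arrays (MouseWG-6, version 2), 18 arrays on 3 BeadChips in 2 hybridization batches. The authors exported probe intensities from BeadStudio and made the deposited log2 intensities with limma's neqc, which corrects background with negative controls, quantile normalizes and adds an offset. Versions are not given in the sources used here. A further 36 columns of the unnormalized table, whose names match no sample's labels, were not used. The depth of an array is not a count, and the number of arrays limits the precision.

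Background was set for every array by 1506 receptor probes, olfactory or vomeronasal. It was their median plus 2.33 times their median absolute deviation, the latter scaled to a normal standard deviation (5.10 to 5.44). On the MS and ML arrays 51.3% to 55.9% of probes lay above it. So did 8.10% to 12.8% of the receptor probes themselves, of which 660 passed the filter. The 35585 of 45281 probes kept (78.6%) entered a linear model (R 4.3.3, limma 3.58.1, with statmod 1.5.0) over all 18 arrays with 1 mean per subset, array quality weights and mouse pool as a random block, after the study's methods. Differences are those of the weighted fit and can depart slightly from plain means. P-values were adjusted by Benjamini-Hochberg over all 6 contrasts between subsets, and a gene was called at a false discovery rate of 0.05 and a fold over 1.5. A gene was its brightest kept probe, and symbols came from the platform annotation (34885 probes with 1 symbol, 18 with several and 10378 with none). The labels give each array's pool. Residuals of the MS and ML arrays of the same pool correlated at 0.42, 0.43, 0.23, 0.57 and 0.43 in pools 1 to 5. MS and ML arrays of different pools in the same batch correlated at 0.01 to 0.44, the highest being a pair on the same BeadChip. These values alone do not tell pool from BeadChip or batch. In simulated data, 62.5% of 200 probes changed by 1 on the log2 scale and 93% of 200 changed by 2 were recovered among 35585 probes. Of the unchanged probes 10 were called. The simulation gave all arrays the same noise and changed few probes. In the data 3936 probes were called higher and 4409 lower, and array weights ran from 0.17 to 2.88. The simulated rates therefore need not hold for the data.

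Members and lists were chosen with earlier results of these data known. Named genes were the 15 largest rises and falls that went the same way in all pools, the sort genes, the label check genes, and for each list the 4 largest called differences and up to 3 called members against its direction. Axin2, Cdh1, Cdh5, Cnn1, Dcn, Itgb4, Jak2, Krt16, Nr3c1, Oxtr, Pkp1, Sox11, Tap2, Tnfrsf11b, Wnt2 and Wnt11 were named after their values were seen. Alternatives changed the filter, weights, blocks, batches, arrays, adjustment, probe summary, centring and background. Promoters were the 250 bases before the start in the RefSeq table.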

Additional observations from a re-analysis of the deposited data

Results flagged for a closer look

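In each subset of 5 arrays, the highest or lowest array was set against the gap to its nearest neighbour for 226 of the genes named above. An array stood apart in 32 of the 452 sets, and chance flags about 1 in 20 groups. The level (log2 intensity) of the array that stood apart is given, with that of its nearest neighbour in its subset for the first gene of each sentence. The mature luminal array of pool 4 was highest for Aldoc (12.69, nearest 11.85), Barx2 (12.58), Egr3 (12.47), Igfbp2 (6.70), Krt14 (13.76), Lgr6 (8.80), Reln (9.14), Sox10 (12.68), Tfap2c (12.94) and Tgfbr3 (9.44) and lowest for Cited1 (11.52, nearest 12.88), Cldn6 (10.87), Etv4 (8.54) and Pls1 (8.15). The MaSC-enriched array of pool 3 was highest for Pls1 (6.89, nearest 5.46) and lowest for Cdh3 (10.06, nearest 11.48), Cxcl14 (12.31), Ecrg4 (12.21), Lamb3 (12.05) and Tagln (9.96). On the mature luminal side, the array of pool 5 was highest for Gli2 (7.29, nearest 5.49), Gli3 (10.69), Htr1d (5.78) and Kdelr3 (8.51) and lowest for Egr2 (10.60, nearest 11.18). The MaSC-enriched array of pool 2 was lowest for Eln (11.67, nearest 12.52), Sema4d (5.31) and Timp3 (12.53). The pool 4 MaSC-enriched array was highest for Hes6 (8.95, nearest 8.20) and Reln (14.16) and lowest for Bmi1 (5.91, nearest 7.55). That of pool 5 was highest for Krt6b (6.94, nearest 5.32). The mature luminal array of pool 4, with 14 of the 32, was also the one highest in luminal progenitor markers, and the MaSC-enriched array of pool 3, with 6, the one highest in endothelial markers. The part of these cells in the values was not tested.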

How the results depend on the processing

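The naming rule chose 266 genes, not all of them printed above. Of the 263 called, 220 were called under each of the 32 settings other than the second hybridization batch alone and limma's test against the fold threshold (treat). With the second batch alone, 2 pools, 389 genes were higher and 174 lower (631 and 275 probes), and 178 of the 263 were no longer called. The first batch alone gave 2062 and 2090 genes. With treat, 1278 genes were higher and 958 lower (2093 and 1655 probes), and 62 were no longer called, by its stricter construction. With the 99th percentile of the receptor probes as background, 234 genes in place of 104 were above it in MaSC-enriched cells alone. Notch3 (0.16) and Cdhr1 (-0.20) changed sign in the second batch alone, and Mbp, with probes called in both directions, did so as the mean of its probes (0.072). The cause was not tested. Without the replicate block 2032 genes were higher and 2023 lower, and with the pool as a fixed replicate block 2271 and 2335.

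Leaving out 1 array gave 2102 to 2257 genes higher and 1999 to 2317 lower, and leaving out both arrays of 1 pool gave 2041 to 2176 and 1934 to 2322. Several list counts moved by over 1.5 times without 1 array, counts of 1 to 3 as well as larger ones. Among the latter, 3 in place of 5 of 15 solute transporters were lower without the MaSC-enriched array of pool 2. Omitting the MaSC-enriched arrays of pools 3 and 4, and also the mature luminal array of pool 4, were choices made after the data were seen, and the latter gave 2230 and 2377.

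Dim genes are limited by background, which compresses their folds, and 15 genes had probes called in both directions. The call of a gene is that of its brightest probe. Of 2389 called genes with several kept probes, all probes were called the same way for 923. Each array is a pool of mice, so that the spread between arrays covers pools and not single animals.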
